A study of Mus musculus with 14 samples.

Results

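A set of 10 genes used as markers of white adipocytes and lipolysis (Adipoq, Lep, Retn, Cfd, Plin1, Lipe, Pnpla2, Lpl, Fabp4 and Pparg) was followed in RNA-seq of the superior mesenteric artery, the main artery of the midgut. These genes were chosen by symbol, as 10 of the 46095 gene symbols in the count table, and all 10 were among the 17693 genes that passed the filter on low counts. The data came from 14 C57BL/6 mice aged 8 weeks in 4 groups. Under normal conditions there were 3 Drp1 +/+ mice (WT) and 4 Drp1 flox/+ mice (KO). The ischemic groups were of the same size, with 3 Drp1 +/+ and 4 Drp1 flox/+ mice. Ischemia was produced by haemorrhage, and KO is the study's name for the flox/+ mice. Drp1, listed as Dnm1l, is the GTPase that divides mitochondria. The labels name no Cre driver and do not say whether the floxed allele was deleted, whereas the study's methods describe a heterozygous line with a frameshift in Drp1 made by CRISPR/Cas9. Counts per gene do not show which allele the mice carried. The study itself reports fewer reads on the targeted exon of Drp1 and less Drp1 protein in its KO mice. The library names give the ischemic period as 2 h, whereas the study's text gives a longer one.

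White adipocytes store triglyceride in a single large droplet coated by perilipin 1, and a fat sheath surrounds the mesenteric artery. When catecholamines raise cAMP, adipose triglyceride lipase and hormone-sensitive lipase take the fatty acids off the stored triglyceride. The same cells take fatty acids in through lipoprotein lipase, carry them with fatty acid-binding protein 4, and release hormones such as adiponectin and leptin. The nuclear receptor PPARγ and factors of the C/EBP family switch on most of these genes. In bulk tissue, fewer adipocytes and less of a transcript per adipocyte cannot be told apart.

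Total counts per mouse ran from 25612646 to 40255851, with a median of 33506452. The 10 genes together took between 0.203% and 2.44% of them, with a median of 0.725%. Levels are given as CPM (counts scaled to a common library total) after TMM scaling. At these depths 3 counts correspond to 0.0745 to 0.117 CPM, a floor that covers counting error only. Dnm1l itself was at 63.8, 65.7 and 90.9 CPM in the normal WT mice and at 54.8, 60.8, 57.9 and 62.2 CPM in the normal KO mice. Each normal KO mouse was therefore lower, and the normal groups did not overlap for 4.50% of all genes. After ischemia Dnm1l was at 81.0, 63.1 and 80.9 CPM in WT mice and 72.6, 69.0, 76.0 and 59.99 CPM in KO mice, which overlapped. Neither difference was called, with FDR values of 0.974 and 0.872 in edgeR's quasi-likelihood test. Of the 14 libraries, 13 came from lane 8, and the library of lane 1 was normal WT replicate 3.

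The artery samples held other cells besides adipocytes. The 6 smooth muscle markers summed to 7316 to 37357 CPM and the 6 endothelial markers to 626 to 1629 CPM over the 14 mice. Of 8 brown adipocyte markers, 6 were detected in every mouse, and the summed level of the list ran from 92.1 to 5092 CPM, of which Ucp1, the uncoupling protein that defines brown and beige fat, made up 40.2 to 4072 CPM. Brown adipocytes also make most of the 10 genes, so the set does not separate white from brown fat. Zic1, another brown adipocyte marker, was at 0 in 13 of 14 mice. Markers of pancreatic acinar cells, which lie near this vessel, summed to 1.02 to 4.21 CPM.

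Promoter sequences are shown as a description of genes whose levels are compared below, and a link between sequence and level was not tested. RefSeq on GRCm38.p6 gave windows from 250 bases before to 50 bases after the start for 8 of the 10 genes, in 11 windows. The letters TTGCGCAA (a palindrome bound by C/EBP factors), TTGCNNAA (a looser form that includes the first), AGGTCA (a nuclear receptor core site) and TATAAA were searched on both strands, and matches are in capitals. The Lep window, chr6:29059971-29060270 on the plus strand, holds TTGCGCAA beginning 55 bases before the start, as 0.183% of the 32851 windows of this length do. The Plin1 window, chr7:79732727-79733026 on the minus strand, holds TTGCNNAA beginning 187 and 58 bases before the start. The Pparg window at the start of its adipocyte isoform, chr6:115421816-115422115 on the plus strand, holds it at 215 and 16 bases, and 10.8% of all windows have at least 1 such match. The Adipoq window, chr16:23146286-23146585 on the plus strand, holds none of the 4. AGGTCA, present in 16.3% of all windows, and TATAAA, present in 13.6%, were found among the members in other Pparg windows only. The 4 windows read as follows.
Lep: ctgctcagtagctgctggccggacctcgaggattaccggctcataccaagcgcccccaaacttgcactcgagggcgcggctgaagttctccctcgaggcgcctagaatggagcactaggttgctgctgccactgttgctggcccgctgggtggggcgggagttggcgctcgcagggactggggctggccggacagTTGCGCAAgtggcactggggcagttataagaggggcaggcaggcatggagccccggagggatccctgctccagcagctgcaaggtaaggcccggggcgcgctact
Plin1: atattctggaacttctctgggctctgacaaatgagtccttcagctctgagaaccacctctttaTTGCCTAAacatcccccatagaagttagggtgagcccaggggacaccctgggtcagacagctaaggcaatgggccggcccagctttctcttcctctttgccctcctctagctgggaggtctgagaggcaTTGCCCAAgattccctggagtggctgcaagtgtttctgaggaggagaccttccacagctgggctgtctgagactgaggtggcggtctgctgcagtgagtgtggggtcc
Pparg: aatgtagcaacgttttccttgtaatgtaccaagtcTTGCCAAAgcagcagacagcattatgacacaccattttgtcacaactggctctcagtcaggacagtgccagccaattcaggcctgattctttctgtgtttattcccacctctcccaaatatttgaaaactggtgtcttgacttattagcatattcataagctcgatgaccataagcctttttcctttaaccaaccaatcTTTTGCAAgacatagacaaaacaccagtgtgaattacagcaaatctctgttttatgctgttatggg
Adipoq: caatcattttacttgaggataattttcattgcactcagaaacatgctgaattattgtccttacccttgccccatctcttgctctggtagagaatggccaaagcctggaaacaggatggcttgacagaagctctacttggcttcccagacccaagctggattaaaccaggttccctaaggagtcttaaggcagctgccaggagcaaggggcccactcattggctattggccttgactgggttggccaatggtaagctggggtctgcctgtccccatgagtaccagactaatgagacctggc

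Levels between genes were compared per kilobase of coding-transcript exon in GENCODE M21 on GRCm38. Fabp4 was the most abundant, with a median of 2801 CPM per kilobase over the 14 mice, followed by Cfd at 1329 and Pnpla2 at 488, and each held the same rank in every mouse. Lpl at 242 and Adipoq at 215 CPM per kilobase exchanged ranks between mice, as did Plin1 at 67.4 and Lipe at 62.0, and in normal WT replicate 1 Plin1 also ranked below Pparg and Retn. Pparg at 34.2 and Retn at 23.5 came next, and Lep was last in every mouse with a median of 1.42 CPM per kilobase. Lipe shares bases with 4732471J01Rik and Pparg with Gm44079 in this annotation, and the use of strand in counting is not given in the sources used here, so reads in these overlaps cannot be assigned with certainty.

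Adipoq (chr16:23146536-23158028, plus strand) encodes adiponectin, a hormone made almost only by adipocytes. It was at 49.1, 1392 and 357 CPM in the 3 normal WT mice and at 223, 328, 271 and 674 CPM in the 4 normal KO mice. After ischemia it was at 136, 192 and 105 CPM in WT mice and 131, 284, 299 and 366 CPM in KO mice. The normal WT mice held both the lowest and the highest of all 14 values, so every other group lay within their range.

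Lep (chr6:29060220-29073877, plus strand) encodes leptin, the hormone that reports fat stores to the brain. No read was counted on it in normal WT replicate 1, where the total of 33409670 counts allows a level of up to 0.0898 CPM, and the other 2 normal WT mice had 8.70 and 18.04 CPM. Normal KO mice had 2.54, 11.7, 4.02 and 4.91 CPM. Ischemic WT mice had 13.7, 5.55 and 7.15 CPM and ischemic KO mice had 1.96, 4.36, 1.199 and 0.578 CPM, on 19 to 142 reads. Each ischemic KO mouse was therefore below each ischemic WT mouse, which was seen for no other member.

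Retn (chr8:3655770-3660110, plus strand) encodes resistin, an adipocyte hormone in mice. It was at 10.2, 96.7 and 37.6 CPM in normal WT mice, 53.5, 49.97, 36.6 and 90.8 CPM in normal KO mice, 9.73, 37.9 and 22.4 CPM in ischemic WT mice and 24.0, 20.8, 29.4 and 40.8 CPM in ischemic KO mice. Of the 4 ischemic KO mice, 3 were below every normal KO mouse. Cfd (chr10:79890853-79892655, plus strand) encodes adipsin, the complement factor D that adipocytes secrete. Its levels were 339, 6672 and 772 CPM in normal WT mice and 1824, 1610, 1467 and 2267 CPM in normal KO mice, against 331, 1229 and 587 CPM in ischemic WT mice and 599, 755, 1222 and 1915 CPM in ischemic KO mice. Its normal KO mice were the closest group of all, with a highest value 1.55 times the lowest, while its normal WT mice differed 19.7 times.

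Plin1 (chr7:79720218-79732903, minus strand) encodes the perilipin that guards the droplet against lipases. It had the widest range of the 9 members that were detected in every mouse, 71.2 times between the lowest and the highest. Normal WT mice were at 12.01, 855 and 301 CPM and normal KO mice at 213, 305, 222 and 617 CPM. Ischemic WT mice were at 109, 212 and 92.2 CPM and ischemic KO mice at 131, 367, 329 and 336 CPM, where replicate 1 lay apart from the other 3.

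Pnpla2 (chr7:141455198-141460743, plus strand) encodes adipose triglyceride lipase, which removes the first fatty acid of a triglyceride. It was at 540, 4678 and 1186 CPM in normal WT mice, 1376, 1615, 1010 and 3215 CPM in normal KO mice, 674, 990 and 538 CPM in ischemic WT mice and 656, 1752, 1392 and 1569 CPM in ischemic KO mice. Each ischemic WT mouse was below each normal KO mouse, as was also the case for Adipoq, Plin1, Lpl and Cfd. These groups differ in both genotype and ischemia, and the share of all genes that separate them was not computed. Lipe (chr7:25379527-25398710, minus strand) encodes hormone-sensitive lipase, which acts next. Its levels were 54.2, 1166 and 364 CPM in normal WT mice, 285, 386, 266 and 682 CPM in normal KO mice, 120, 316 and 134 CPM in ischemic WT mice and 168, 498, 391 and 397 CPM in ischemic KO mice. Both lipases had their highest value in normal WT replicate 2 and their next highest in normal KO replicate 4.

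Lpl (chr8:68880491-68907448, plus strand) encodes the lipase that frees fatty acids from blood lipoproteins. It was at 234, 3853 and 659 CPM in normal WT mice and 1016, 1079, 978 and 2385 CPM in normal KO mice, and after ischemia at 339, 651 and 283 CPM in WT mice and 464, 1129, 1594 and 1054 CPM in KO mice. Fabp4 (chr3:10204088-10208576, minus strand) encodes the fatty acid carrier of adipocytes, which endothelial cells and macrophages also make. Normal WT mice had 742, 9272 and 2748 CPM and normal KO mice 2133, 3527, 2162 and 5901 CPM. Ischemic WT mice had 1163, 2271 and 1300 CPM and ischemic KO mice 1198, 3363, 2824 and 3769 CPM. The ischemic WT mice were the lowest group by median for both genes.

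Pparg (chr6:115360951-115490399, plus strand) encodes the nuclear receptor that directs adipocyte differentiation. It was at 21.3, 242 and 90.4 CPM in normal WT mice, 66.1, 96.4, 64.5 and 182 CPM in normal KO mice, 40.8, 72.3 and 31.2 CPM in ischemic WT mice and 42.0, 184, 148 and 138 CPM in ischemic KO mice. Pparg was the only member whose fitted level was higher after ischemia than before it in KO mice, and that difference was smaller than its standard error.

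**Figure D1:**
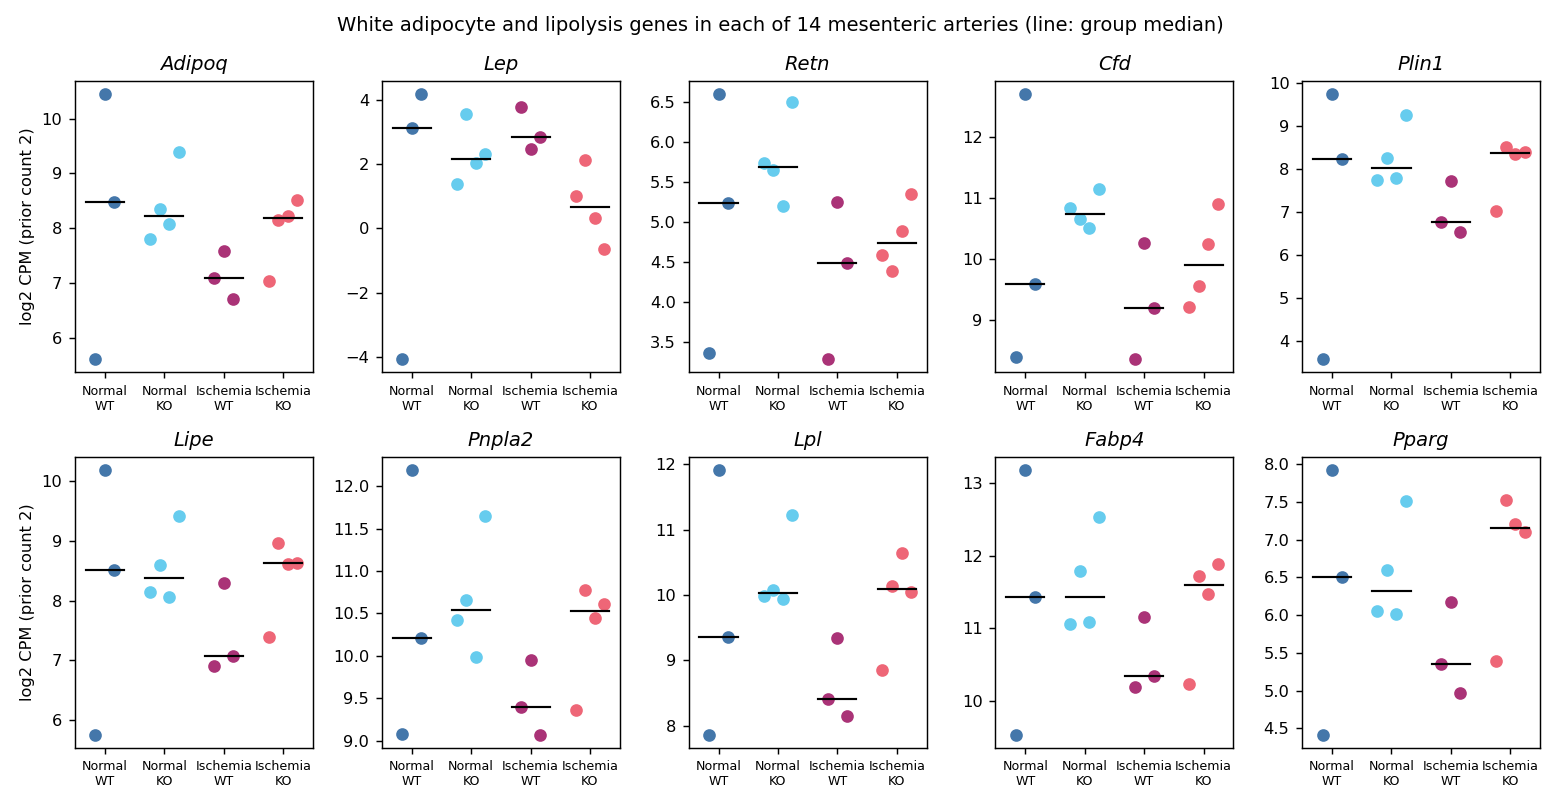
Level of each of the 10 genes (log2 CPM with a prior count of 2, vertical axis, a separate scale for each gene) in each mouse, by group; points are mice and lines are group medians. The normal WT mice spread most for each of the 10 genes, and for Lep the 4 ischemic KO mice lie below the 3 ischemic WT mice.

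Normal KO mice were set against normal WT mice to ask whether the altered Drp1 allele alone moved these genes. None of the 10 members was called (FDR under 0.05 with a fold above 1.5) in edgeR's quasi-likelihood test, as 0% of all genes were. At an unadjusted p under 0.05 there were 0 members, beside 5.25% of all genes, and the groups overlapped for each of the 10, beside 4.50% of all genes with groups that did not overlap. The median log2 fold change of the members was −0.28, and that of all genes was −0.02. A negative value was found for 9 members, led by Adipoq at −0.68 (standard error 0.73), and Retn had a positive one of 0.26 (standard error 0.59). The 95% intervals of the 10 ran from −2.95 to 1.71 in all, so changes of severalfold in either direction were not detectable here. Among markers of other cells, the median was 1.34 for 6 fibroblast and adipocyte progenitor, 1.75 for 6 mesothelial and 0.97 for 6 macrophage markers. Of these, 2, 0 and 1 were higher with an unadjusted p under 0.05. It was −0.09 for 7 brown adipocyte and −0.23 for 6 smooth muscle markers, with 0 at that limit. The part of these cells in the values of the 10 genes was not tested. The sign of the members' median depended on 1 mouse and on the method. Without normal WT replicate 2 the median was 1.02, with 9 of 10 members higher in KO mice and 3 with an unadjusted p under 0.05 (smallest FDR 0.317 in edgeR), and with all mice limma-trend, which averages logs, gave 0.48 with 10 of 10 higher.

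After ischemia, KO mice were compared with WT mice to ask whether the allele altered the response. Again 0 members were called, beside 0% of all genes, and 0 members had an unadjusted p under 0.05, beside 6.48% of all genes. The groups did not overlap for 1 of 10 members, Lep, beside 10.7% of all genes, a share near the background. The median log2 fold change of the members was 0.89, against −0.03 over all genes. Positive values were found for 9 members, with Pparg at 1.41 (standard error 0.69, FDR = 0.715 in edgeR), Lpl at 1.32 (standard error 0.75) and Plin1 at 1.08 (standard error 0.86). Lep went the other way, at −2.12 (standard error 1.11, 95% interval −4.49 to 0.26, FDR = 0.715 in edgeR). A fit of the 2 ischemic groups alone gave 6 members with an unadjusted p under 0.05 and a smallest FDR of 0.291 in edgeR. It called 0 of 16190 genes. Here and in the other alternative fits, the share of all genes with an unadjusted p under 0.05 was not computed, so such counts have no background. In the fit of all mice, the median log2 fold change was 1.66 for 7 brown adipocyte markers. Of these, 3 were higher with an unadjusted p under 0.05. Their summed level was 115 to 1195 CPM in ischemic WT mice and 845 to 4163 CPM in ischemic KO mice. The median was −0.26 for 6 smooth muscle and 0.59 for 6 macrophage markers. It was −0.54 for 6 fibroblast and adipocyte progenitor and −1.09 for 6 mesothelial markers. These 4 lists had 0 markers at that limit. The part of these cells in the values of the 10 genes was not tested.

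In WT mice, ischemia against normal conditions gave negative log2 fold changes for all 10 members, with a median of −1.49 against −0.01 over all genes. They were −2.05 for Adipoq, −1.90 for Lpl, −1.86 for Cfd, −1.54 for Pnpla2 and −1.498 for Plin1, with standard errors of 0.82, 0.80, 0.85, 0.67 and 0.92. Lep stood at −0.02 (standard error 1.16). No member was called, beside 0.0113% of all genes, and the smallest FDR among them was 0.513 in edgeR. Of the members, 4 (Adipoq, Lpl, Cfd and Pnpla2) had an unadjusted p under 0.05, beside 9.57% of all genes. These 4 varied together over the mice and are not separate observations. The groups overlapped for all 10, beside 11.0% of genes whose groups did not, and normal WT replicate 1 lay within or below the range of the ischemic WT mice. Among markers of other cells, the median log2 fold change was −1.65 for 7 brown adipocyte markers, 0.47 for 6 smooth muscle markers and 1.17 for 6 mesothelial markers, none of which had an unadjusted p under 0.05. Their summed levels were 92.1 to 5092, 7316 to 25507 and 5.25 to 21.2 CPM in normal WT mice and 115 to 1195, 20341 to 37357 and 26.7 to 35.2 CPM in ischemic WT mice, and their part in the values of the 10 genes was not tested. The count of 4 members became 0 with limma-trend (median −0.80), in a fit of these 2 groups alone, and without normal WT replicate 2 (median −0.16), ischemic WT replicate 1 (−1.30) or ischemic WT replicate 3 (−1.29). It became 1 with the replicate number as a block (median −1.03), 6 with DESeq2, 6 without ischemic WT replicate 2 (−1.90) and 9 without normal WT replicate 1 (−2.01, smallest FDR 0.118 in edgeR).

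In KO mice, the same comparison gave a median of −0.40, against −0.05 over all genes. Negative values were found for 9 members, with Lep at −1.51 (standard error 1.04) and Retn at −1.003 (standard error 0.55, FDR = 0.466 in edgeR), and Pparg was at 0.32 (standard error 0.61). There were 0 members called, beside 0.294% of all genes, and 0 with an unadjusted p under 0.05, beside 13.2%. Groups did not overlap for 0 members, beside 11.1% of all genes. Among markers of other cells, 3 of 6 for fibroblasts and adipocyte progenitors, 2 of 6 for macrophages and 1 of 6 for mesothelium were lower with an unadjusted p under 0.05, with median log2 fold changes of −1.29, −0.98 and −1.52. So was 1 of 3 tested lymphocyte markers, while 1 of 7 brown adipocyte and 1 of 5 skeletal muscle markers were higher. The summed levels of the first 3 lists were 1047 to 6822, 194 to 604 and 10.6 to 118 CPM in normal KO mice and 1494 to 2156, 118 to 331 and 2.26 to 37.7 CPM in ischemic KO mice, and their part in the values of the 10 genes was not tested. Without normal KO replicate 4, which held the most adipocyte transcript of its group, the median of the members was 0.03.

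Whether ischemia changed the members differently in KO and WT mice was tested by the interaction. Its values had a median of 1.23, with 9 of 10 positive and Lep at −1.49 (standard error 1.55). No member was called, beside 0% of all genes, and 0 had an unadjusted p under 0.05, beside 4.32%. The intervals of the 10 spanned −4.84 to 3.84 in all. Without normal WT replicate 2 the median was −0.13, and without normal WT replicate 1 it was 1.81 with 5 members at an unadjusted p under 0.05 (smallest FDR 0.433 in edgeR). The replicate block gave a median of 0.74 and limma-trend one of 0.55. Among markers of other cells, the median was 1.91 for 7 brown adipocyte, 0.06 for 6 smooth muscle and −0.31 for 6 macrophage markers. It was −1.83 for 6 fibroblast and adipocyte progenitor markers and −2.84 for 6 mesothelial markers, of which 3 and 2 were negative with an unadjusted p under 0.05. The part of these cells in the values of the 10 genes was not tested. Values of these comparisons share mice and are not separate observations.

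**Figure D2:**
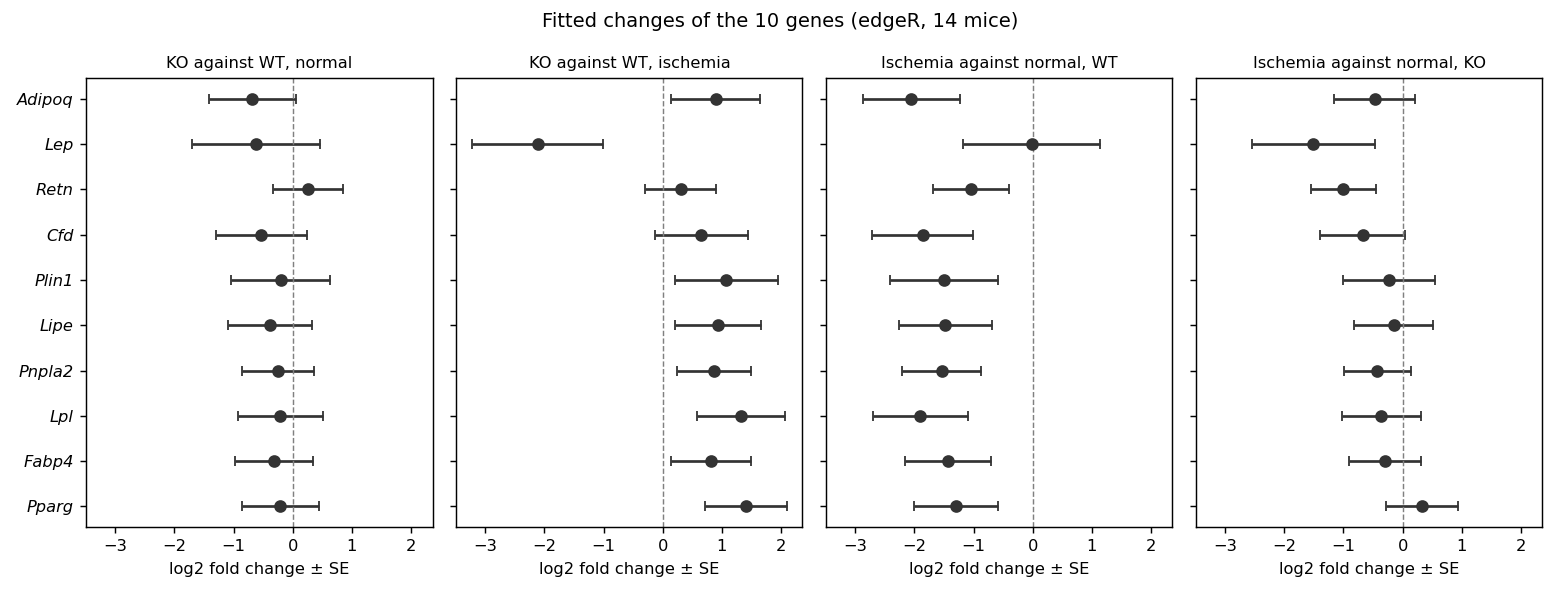
Fitted log2 fold change (horizontal axis) of each of the 10 genes in the 4 comparisons of 2 groups, with bars of 1 standard error; the dashed line marks no change. All 10 genes lie below 0 for ischemia in WT mice, and Lep alone lies below 0 for KO against WT mice after ischemia.

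Taking both genotypes, ischemia against normal conditions gave negative values for 10 of 10 members, with a median of −0.92 against −0.05 over all genes. The log2 fold changes were −1.27 for Cfd, −1.26 for Adipoq, −1.13 for Lpl, −1.02 for Retn and −0.98 for Pnpla2, with standard errors of 0.56, 0.53, 0.52, 0.42 and 0.43. These 5 members, which varied together over the mice and are not separate observations, had an unadjusted p under 0.05, beside 18.1% of all genes. None was called, beside 0.927% of all genes, and their FDR values were 0.255, 0.238, 0.270, 0.232 and 0.257 in edgeR's quasi-likelihood test. The other 5 members lay between −0.86 and −0.49. The count of 5 members became 0 with limma-trend (median −0.63) and without any 1 of normal WT replicate 2 (−0.21, with 9 of 10 negative), normal KO replicate 4 (−0.78), ischemic WT replicate 1 (−0.90), ischemic WT replicate 3 (−0.85) or ischemic KO replicate 1 (−0.81). It became 2 without ischemic KO replicate 2 (−1.004), 3 without ischemic KO replicate 3 or normal KO replicate 1, 3 with the replicate block (−0.72) and 9 without normal WT replicate 1 (−1.17, smallest FDR 0.055 in edgeR). For KO against WT mice over both conditions, the median was 0.28, 9 of 10 members were positive and Lep was at −1.37 (standard error 0.77). No member was called or had an unadjusted p under 0.05 there, beside 0% and 7.77% of all genes. The median ran from 0.05 to 0.98 with each mouse left out, and was 0.61 with limma-trend. The highest was without normal WT replicate 2, where 5 members had an unadjusted p under 0.05 and the smallest FDR was 0.104 in edgeR.

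The extremes of the 10 genes came mostly from 2 normal WT mice. Replicate 2 held the highest level of the 14 mice for 9 of the 10 genes, at 265% of the median of the other 13 mice for Retn and 546% for Cfd. In that mouse the smooth muscle myosin Myh11 was at 35.02% of the median of the others. Replicate 1 held the lowest level for 7 genes and had Plin1 at 3.99%, Lipe at 14.9% and Adipoq at 17.3% of the median of the others. Its Fabp4 was at 27.0%, Cfd at 27.6% and Pnpla2, a lipase of many tissues, at 39.2%. Ucp1 was at 3.50% there, while the endothelial gene Pecam1 was at 194% and Myh11 at 102%.

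**Figure D3:**
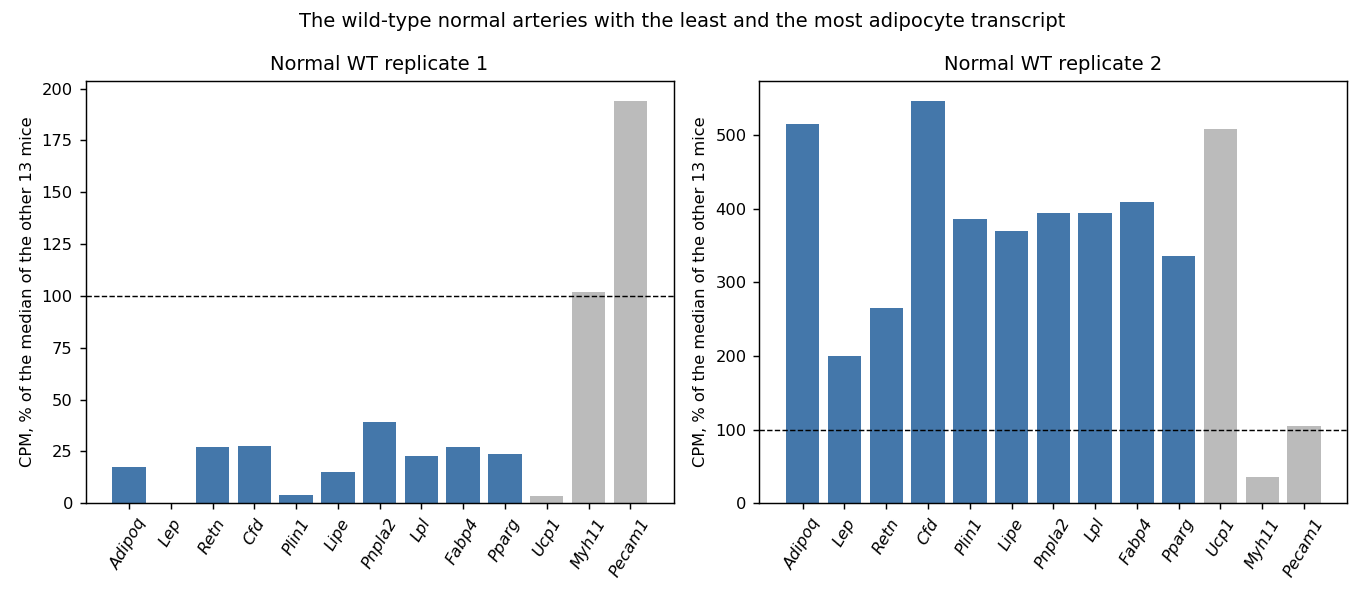
CPM of the 10 genes (blue) and of Ucp1, Myh11 and Pecam1 (grey) in normal WT replicates 1 and 2, as a percentage of the median of the other 13 mice (dashed line at 100%). Replicate 1 lies under 40% for all 10 genes, with Lep at 0, and replicate 2 lies above 199% for all 10.

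Of the members, 9 followed each other over the 14 mice, so counts and shared signs among them are not separate observations. The Pearson correlations of log2 CPM for their 36 pairs ran from 0.713 to 0.976, with a median of 0.913. Lep had correlations of 0.233 to 0.605 with the 9, and of −0.175 to 0.053 when normal WT replicate 1, the mouse with no Lep read, was left out. The 9 genes had correlations of 0.785 to 0.914 with Ucp1, of −0.860 to −0.579 with Myh11 and of −0.383 to −0.0436 with Pecam1. Without normal WT replicate 1 those with Pecam1 were −0.0563 to 0.243, positive for 8 of the 9. These are descriptions over libraries scaled to a common total, in which a larger share for 1 tissue leaves a smaller share for another.

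Dividing by Plin1 compares transcripts at a given amount of droplet-coat transcript. Outside normal WT replicate 1, the ratio of Lipe to Plin1 stayed between 1.11 and 1.49 in 13 mice, that of Adipoq between 0.775 and 1.63 and that of Pnpla2 between 3.95 and 6.45. In normal WT replicate 1 these ratios were 4.51, 4.09 and 44.9.

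Lep was the member that varied most against Plin1. Its ratio was 0.126, 0.0261 and 0.0776 in ischemic WT mice and 0.0150, 0.0119, 0.00364 and 0.00172 in ischemic KO mice, with no overlap. Under normal conditions it was 0, 0.0102 and 0.0600 in WT mice and 0.0119, 0.0382, 0.0181 and 0.00796 in KO mice, which overlapped. The ratio of Pparg to Plin1 was 0.310, 0.316, 0.291 and 0.295 in normal KO mice and 0.321, 0.501, 0.449 and 0.410 in ischemic KO mice, so each ischemic KO mouse was above each normal one. In WT mice it was 1.77, 0.284 and 0.301 before and 0.376, 0.340 and 0.338 after ischemia, where the groups overlapped only through replicate 1. The share of all genes whose ratio to Plin1 separates 2 groups was not computed, so these separations have no background. By CPM alone, 10.7% of all genes separated ischemic KO from ischemic WT mice and 11.1% separated ischemic from normal KO mice.

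**Figure D4:**
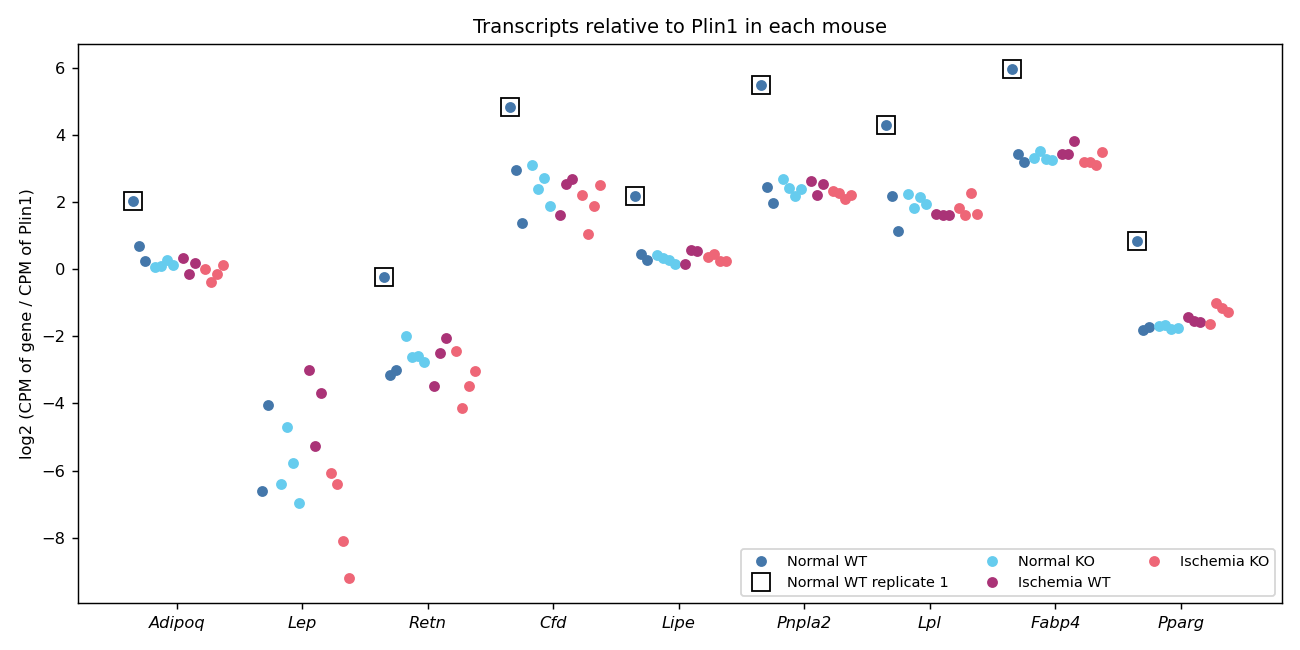
Ratio of each gene's CPM to that of Plin1 (log2, vertical axis) in each mouse, coloured by group; squares mark normal WT replicate 1, which has no point for Lep because its count was 0. That mouse lies above all others for the 8 remaining genes, and the Lep ratios of ischemic KO mice lie below those of ischemic WT mice.

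The genes outside the list whose levels followed the members most closely were found by the Pearson correlation over the 14 mice with the mean standardised log2 CPM of the 10. Among the closest were Slc36a2 (0.984), an amino acid transporter, Mgst1 (0.982), Fam213a (0.981), Cpt2 (0.981), which lets fatty acids enter oxidation in mitochondria, Scp2 (0.978), Jak3 (0.977), Ppa1 (0.977), Gys1 (0.976) and Gstz1 (0.976). These 9 had negative log2 fold changes for ischemia over both genotypes, from −1.23 for Mgst1 to −0.67 for Scp2. None was called in edgeR (FDR 0.230 to 0.377). They were chosen for following the members in these same mice, so their shared direction is not a separate result. Ucp1 had a correlation of 0.885 and stood at rank 633, and Cox8b, a respiratory subunit of brown fat, had 0.922 at rank 330.

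A further 6 lists of adipocyte genes were examined for ischemia over both genotypes, in which 0.927% of all genes were called. Genes are named from them by their p-values, so a separation of mice given for them restates the same values. The share of all genes with every ischemic mouse on 1 side of every normal mouse was not computed. Of 12 genes that control lipolysis, 0 were called, 5 had an unadjusted p under 0.05 with a lower level and the median log2 fold change was −0.96. These 5 were measured in the same mice and are not separate observations. Adrb1, a β-adrenergic receptor, was at 2.39, 13.8 and 7.25 CPM in normal WT mice, 4.06, 10.4, 5.56 and 11.7 CPM in normal KO mice, 1.92, 1.22 and 1.96 CPM in ischemic WT mice and 2.29, 4.61, 5.23 and 4.01 CPM in ischemic KO mice. All 3 ischemic WT mice were below all normal mice, and the log2 fold change over both genotypes was −1.58 (standard error 0.38, FDR = 0.069 in edgeR). G0s2, an inhibitor of adipose triglyceride lipase, had a log2 fold change of −1.40 (standard error 0.51, FDR = 0.189 in edgeR).

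Of 7 lipid droplet genes, 1 was called higher and 0 were called lower, and the median was −0.33. At an unadjusted p under 0.05, 1 was higher and 1 was lower. The one called was Hilpda, which encodes a hypoxia-inducible droplet protein that inhibits adipose triglyceride lipase. It was at 6.43, 3.80 and 5.10 CPM in normal WT mice, 4.26, 3.54, 3.34 and 2.85 CPM in normal KO mice, 7.57, 17.6 and 6.44 CPM in ischemic WT mice and 8.62, 16.8, 11.7 and 12.04 CPM in ischemic KO mice. Every ischemic mouse was above every normal mouse, with no share of all genes to set beside it, and the lowest ischemic and highest normal mouse nearly met. The log2 fold change was 1.43 over both genotypes (standard error 0.25, FDR = 0.022 in edgeR) and 1.81 in KO mice (standard error 0.34, FDR = 0.044 in edgeR). In WT mice it was 1.04 (standard error 0.38) and was not called (FDR = 0.513 in edgeR). The interaction was 0.77 (standard error 0.50, FDR = 0.946 in edgeR), so a difference between genotypes was not shown. Over both genotypes the Hilpda call was lost without ischemic KO replicate 2 (FDR = 0.056 in edgeR), normal KO replicate 2 (0.053), normal KO replicate 3 (0.051) or normal WT replicate 2 (0.054), and in KO mice without any of the 8 KO mice or normal WT replicate 3 (FDR up to 0.181 in edgeR).

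Of 9 adipogenic transcription factors, 2 were called higher and 0 were called lower, and the median was 0.02. At an unadjusted p under 0.05, 3 were higher and 2 were lower. Cebpd, a C/EBP factor that acts early in adipocyte differentiation, was at 82.5, 41.7 and 37.9 CPM in normal WT mice, 90.9, 115, 126 and 46.3 CPM in normal KO mice, 83.8, 323 and 204 CPM in ischemic WT mice and 179, 130, 209 and 244 CPM in ischemic KO mice. Its ischemic KO mice were all above the normal mice, and ischemic WT replicate 1 was not. Its log2 fold change was 1.46 (standard error 0.32, FDR = 0.047 in edgeR). Klf15, a factor that glucocorticoids induce, was at 160, 147 and 94.3 CPM in normal WT mice and 152, 70.2, 113 and 94.0 CPM in normal KO mice. After ischemia it was at 199, 214 and 199 CPM in WT mice and 240, 203, 199 and 211 CPM in KO mice. Every ischemic mouse was above every normal mouse, again with no share of all genes to set beside it. The log2 fold change of Klf15 was 0.80 (standard error 0.17, FDR = 0.049 in edgeR). Over 24 other settings, Hilpda was called in 19, Klf15 in 9 and Cebpd in 7, each with a positive value in all 24. Without a single mouse, the call over both genotypes was kept for Cebpd only when that mouse was ischemic WT replicate 1 or normal WT replicate 1, and for Klf15 only when it was normal WT replicate 1 or normal KO replicate 1, with values of 1.21 to 1.71 and 0.70 to 0.95 over all settings. Pparg, the factor among the 10 genes, was at −0.49 (standard error 0.47) in the same comparison.

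No gene of the remaining 3 lists was called. Of 7 fatty acid uptake genes, 6 were tested, with a median of −0.66, and Angptl4 did not pass the filter. Slc27a1, a fatty acid transporter, was at −1.004 (standard error 0.36, FDR = 0.186 in edgeR) and Cd36, another, at −0.82 (standard error 0.41, FDR = 0.305 in edgeR). The 16 genes of lipogenesis and glucose uptake had a median of −0.58, with Dgat2, which makes triglyceride, at −1.85 (standard error 0.64, FDR = 0.170 in edgeR) and Gpam, which starts glycerolipid synthesis, at −0.88 (standard error 0.51, FDR = 0.377 in edgeR). The 11 other adipokines and receptors had a median of −0.12. Agt, the angiotensin precursor, was at 2.84 (standard error 0.90, FDR = 0.142 in edgeR) and Apln, the peptide apelin, at −2.28 (standard error 0.90, FDR = 0.213 in edgeR). Agt was near the floor of 3 counts in normal WT mice, at 0.0295 to 0.415 CPM. In ischemic KO mice Agt ran from 0.369 to 25.1 CPM, with a median of 3.50. Apln ran from 0 to 16.2 CPM in normal WT mice. In the other comparisons, 0 genes of the 6 lists were called, except Hilpda in KO mice.

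**Figure D5:**
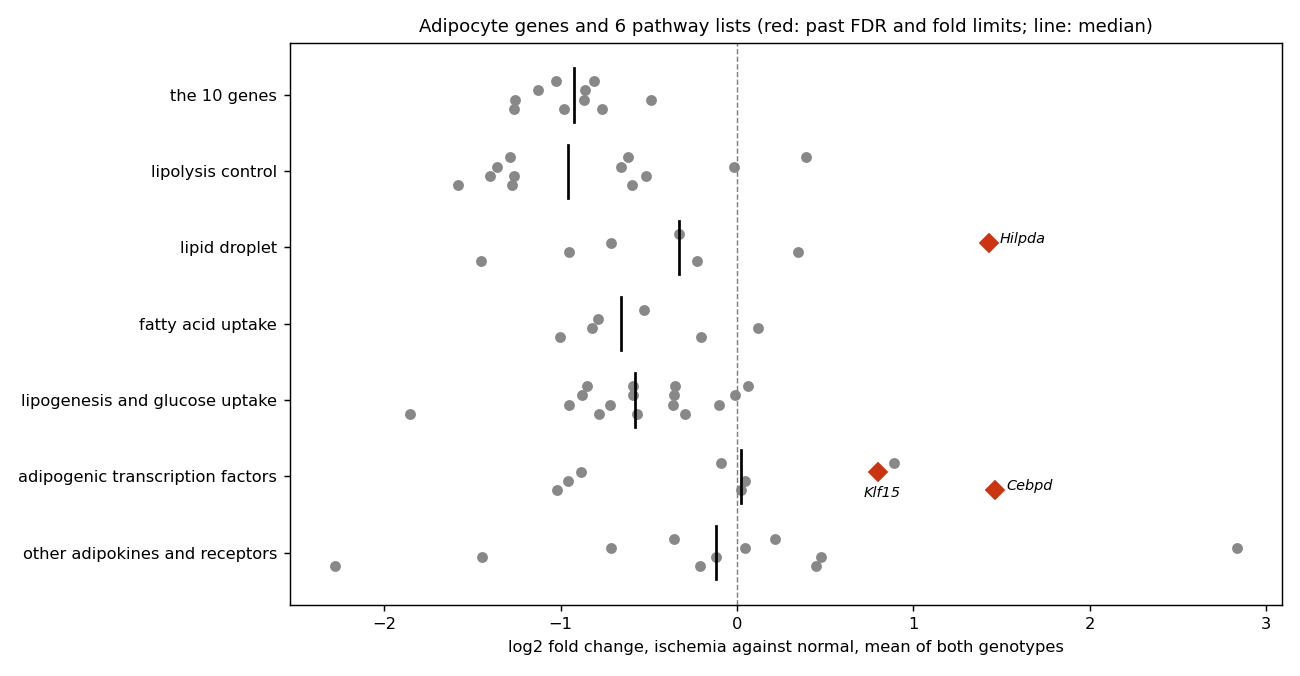
Log2 fold change for ischemia against normal conditions over both genotypes (horizontal axis) for the 10 genes and for each tested gene of 6 lists; black lines are medians and red diamonds are genes past the FDR and fold limits. The 10 genes and the lipolysis list lie mostly below 0, and Hilpda, Cebpd and Klf15 lie above it.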

How the data were processed

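RNA of 14 superior mesenteric arteries was sequenced on an Illumina instrument. The authors deposited whole-number read counts per gene symbol and mouse, without normalization or pooling. The submitters' processing notes name HISAT2 2.0.4 and mm10. The counting program, annotation and use of strand are not given in the sources used here, so reads of overlapping genes could be split in unknown ways. Mice were grouped by their titles, and same-numbered mice of different groups are different animals.

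The tests were run with edgeR 4.0.16 under R 4.3.3 (filterByExpr, TMM, quasi-likelihood test, Benjamini-Hochberg over 17693 genes) in 1 fit of all 14 mice. A gene was called where its FDR was under 0.05 with a fold above 1.5, the limits of the study's methods, whose RVM F-test was not used because the values are counts. Intervals of log2 fold changes use the test's own degrees of freedom. The common coefficient of variation between mice was 0.522, and this limits precision more than counting error does. An adjusted p-value limits the expected share of false calls among the genes called. The tests behind it take their error from the spread between these mice. Each pair of mice of a group differed by more than sampling noise.

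Alternatives were DESeq2 1.42.0, limma-trend (limma 3.58.1), other scalings and filters, no fold limit, fits of only the groups compared, the replicate number as a block, Plin1 as a covariate, and each mouse left out. Leaving out normal WT replicate 3 also removes lane 1. For these alternatives the share of all genes with an unadjusted p under 0.05 was not computed. The steps were tested on simulated data. The 10 genes, the 6 lists and the marker lists were chosen with earlier results of these data known. Named from the lists are the genes called, or else the 2 with the smallest p in the comparison described, and the 10 genes most correlated with the members, of which 1 is not reported here. Sequences come from RefSeq, where Fabp4 and Lpl had no window, and coordinates from GENCODE M21.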

Additional observations from a re-analysis of the deposited data

Results flagged for a closer look

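In groups of 4 mice, 38 sets of values (CPM of each gene and its ratio to Plin1) were examined for a mouse far from the other 3, and 3 were found. The limit used is passed by about 1 in 20 sets of independent, normally distributed values. These sets share mice and, for the ratios, Plin1, so the 3 cannot be read against that rate. Plin1 in ischemic KO replicate 1 was at 131 CPM, below 329 to 367 CPM in the other 3 mice. Lpl in normal KO replicate 4 was at 2385 CPM, above 978 to 1079 CPM in the others. The ratio of Retn to Plin1 in normal KO replicate 1 was 0.251.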

How the results depend on the processing

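Under each alternative without a covariate, DESeq2, limma-trend and each mouse left out included, 0 of the 10 genes were called in the comparisons each was run for (7, or 4 for fits of only the groups compared). With Plin1 as a covariate, 1 was called for ischemia over both genotypes, Adipoq at −0.61 on the log2 scale (FDR = 0.041 in edgeR), and without normal WT replicate 1 it was not. Over all genes, DESeq2 called 870 for ischemia over both genotypes where edgeR called 164, 606 against 52 in KO mice, 108 against 2 in WT mice, 41 and 18 against 0 for KO against WT mice under normal conditions and after ischemia, 11 against 0 for the interaction and 88 against 0 for KO against WT mice over both conditions.

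Signs reversed as follows, and the cause was not tested. Lep for ischemia over both genotypes was 0.17 with limma-trend, 0.13 with Plin1 as a covariate and 0.075 with that covariate without normal WT replicate 2. In WT mice it was 1.96, 0.0027 with upper-quartile scaling, 0.43 with the replicate block, and 1.53 and 1.32 with the covariate. With the covariate and without normal WT replicate 1, settings chosen after seeing the data, ischemia over both genotypes gave Fabp4 0.098, Lpl 0.0022, Pparg 0.47, Lipe 0.078 and Pnpla2 0.015, and in WT mice Lpl 0.14 and Pnpla2 0.21. For KO against WT under normal conditions, limma-trend gave a median of 0.48 with 10 of the 10 genes higher, Adipoq at 0.23 and Plin1 at 1.07, and the replicate block gave a median of −0.04 with 4 higher, Plin1 at 0.11. With each mouse left out, Pparg for ischemia over both genotypes ran from −0.72 to 0.063, Lep in WT mice from −0.62 to 1.02, and Adipoq and Plin1 for KO against WT under normal conditions from −1.22 to 0.88 and −0.76 to 1.12. Only a selection of genes and comparisons was followed one by one in this way, and 499 of those values kept their sign and their side of the limits.

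The labels number the mice within groups. Over 19 pairs of same-numbered mice the correlation of deviations ran from −0.146 to 0.316, and 8 of 14 mice correlated best with their own number. The 3 pairs of normal and ischemic WT mice had 0.123, 0.192 and 0.120, and some pairs of other groups were below 0. The labels give no shared origin, so whether the numbers pair the mice is not known. The block called 0 of the 10 genes in every comparison, and under it the calls of Cebpd over both genotypes (FDR = 0.075 in edgeR) and of Hilpda in KO mice (FDR = 0.060 in edgeR) were not made. Depth limits Lep most, with 0 reads in 1 mouse.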
